A study of Mus musculus with 8 samples.

Results

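The genes described here are 10 endothelial and capillary growth genes, taken by their gene symbols from the 22880 gene identifiers counted in the mouse soleus, a calf muscle rich in slow fibres. They are the endothelial junction and surface genes Pecam1, Cdh5 and Emcn, the VEGF receptor genes Kdr and Flt1, the angiopoietin receptor gene Tek, the transcription factor genes Sox17 and Sox18, the von Willebrand factor gene Vwf, and Vegfa, the gene of the principal capillary growth factor. RNA was sequenced from the soleus of 4 control mice (Dnm2 +/+) and 4 mutant mice (Dnm2 +/K562E), all male, 2 months old and on the C57BL/6 background (the J substrain, per the methods). The mutant mice carry a point mutation in 1 allele of dynamin 2, a GTPase that severs membrane necks in endocytosis, and the mutation is present in all their cells. Each library came from the soleus of a single mouse. All 10 genes passed the filter on low counts, with 550 to 14687 reads per gene and mouse.

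Endothelial cells line the blood vessels, and in a slow oxidative muscle a dense capillary bed lies along the fibres. Muscle fibres secrete VEGF-A, which binds the receptors VEGFR2 (Kdr) and VEGFR1 (Flt1) on endothelial cells. VEGFR2 carries most of the growth signal, whereas VEGFR1 binds the ligand tightly, signals weakly and limits how much of it reaches VEGFR2. Tie2 (Tek) receives angiopoietins and keeps vessels stable, and SoxF factors such as Sox17 and Sox18 take part in the formation of arteries and lymphatics.

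Promoter sequences from RefSeq on GRCm38.p6 were matched for 5 of the 10 genes (Kdr, Flt1, Tek, Emcn and Vegfa). The 250 bases before the start site are shown for the 3 genes with the largest change and, beside them, for Tek, so that the make-up of these windows can be compared. Capitals mark matches on either strand to GGAAG (the core bound by ETS factors, which are active in endothelial cells), GGGCGG (the GC box) and TGACGTCA (the cyclic AMP response element), which do not overlap each other here.
Vegfa, chr17:46032378-46032627, minus strand: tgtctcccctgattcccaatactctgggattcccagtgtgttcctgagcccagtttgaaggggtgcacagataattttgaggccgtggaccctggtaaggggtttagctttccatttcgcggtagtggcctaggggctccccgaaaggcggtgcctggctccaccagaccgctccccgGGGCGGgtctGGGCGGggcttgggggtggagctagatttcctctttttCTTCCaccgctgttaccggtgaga
Flt1, chr5:147726012-147726261, minus strand: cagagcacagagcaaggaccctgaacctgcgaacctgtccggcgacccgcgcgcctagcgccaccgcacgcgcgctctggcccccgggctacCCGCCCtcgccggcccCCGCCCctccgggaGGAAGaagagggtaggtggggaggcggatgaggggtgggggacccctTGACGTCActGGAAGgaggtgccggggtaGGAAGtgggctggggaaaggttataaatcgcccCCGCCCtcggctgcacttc
Kdr, chr5:75978456-75978705, minus strand: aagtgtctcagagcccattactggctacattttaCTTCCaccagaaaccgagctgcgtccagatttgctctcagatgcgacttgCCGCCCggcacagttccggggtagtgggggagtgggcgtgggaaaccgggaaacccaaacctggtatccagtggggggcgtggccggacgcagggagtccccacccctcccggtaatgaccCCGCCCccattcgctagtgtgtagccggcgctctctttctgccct
Tek, chr4:94739039-94739288, plus strand: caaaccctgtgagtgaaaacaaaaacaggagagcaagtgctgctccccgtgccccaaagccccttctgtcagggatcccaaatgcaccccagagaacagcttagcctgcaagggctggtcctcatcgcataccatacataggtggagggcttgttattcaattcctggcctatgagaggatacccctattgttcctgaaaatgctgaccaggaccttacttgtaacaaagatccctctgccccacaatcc

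GGGCGG occurred 3 times in the Flt1 window and 2 times in each of the Kdr and Vegfa windows, and it was not found in those of Tek and Emcn. It is present in 32.7% of all 32851 RefSeq promoter windows of this length. GGAAG occurred 3 times for Flt1, 2 times for Emcn and 1 time each for Kdr and Vegfa, against a share of 64.1% of all windows. The full TGACGTCA was found 1 time, at 81 bases before the Flt1 start, and is present in 1.55% of all windows. The core ACGTG of the hypoxia response element was found in none of the 5 windows (16.6% of all), and ACAAAG, a SOX core, was found only for Tek among the 5 (16.5% of all). These matches describe the letters of short windows and were not compared with the expression values.

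The total was 33407430 to 48832814 counts per mouse. TMM normalization, which assumes that most genes do not differ between libraries, gave factors of 0.915 to 0.959 for controls and 1.04 to 1.10 for Dnm2 +/K562E mice, so that the scaling itself separates the genotypes. With library size alone in place of TMM, the median log2 fold change of all tested genes moved from 0.01 to 0.22. Values below are normalized CPM (read counts scaled to a common library size after TMM) unless stated otherwise, and every gene's log2 fold change compares Dnm2 +/K562E with control mice. Total Dnm2 was 66.3 ± 4.74 CPM in controls and 73.4 ± 2.43 CPM in mutants (SD, n = 4 each), with no call (adjusted p = 0.0909, edgeR quasi-likelihood F-test, Benjamini-Hochberg), and these counts do not separate the alleles.

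All 10 genes had a lower mean level in Dnm2 +/K562E soleus, and 9 of them fell with an adjusted p under 0.05, against 21.7% of all 14001 tested genes that fell and 22.2% that rose by the same test. With the additional threshold of a log2 fold change of 0.58, 3 genes were lower (Vegfa, Flt1 and Kdr), where 7.85% of all tested genes were lower and 12.9% higher. None of the 10 rose. In 8 genes every mutant mouse lay below every control, which held for 20.5% of all tested genes. The median log2 fold change of the 10 genes was -0.41, and that of the 9 genes other than Vegfa was -0.40, against 0.01 for all tested genes. In bulk muscle RNA, fewer endothelial cells and less RNA per cell cannot be told apart for the 9 genes other than Vegfa. For Vegfa, which muscle fibres express, the cells in which its RNA fell cannot be told from these data.

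**Figure D1:**
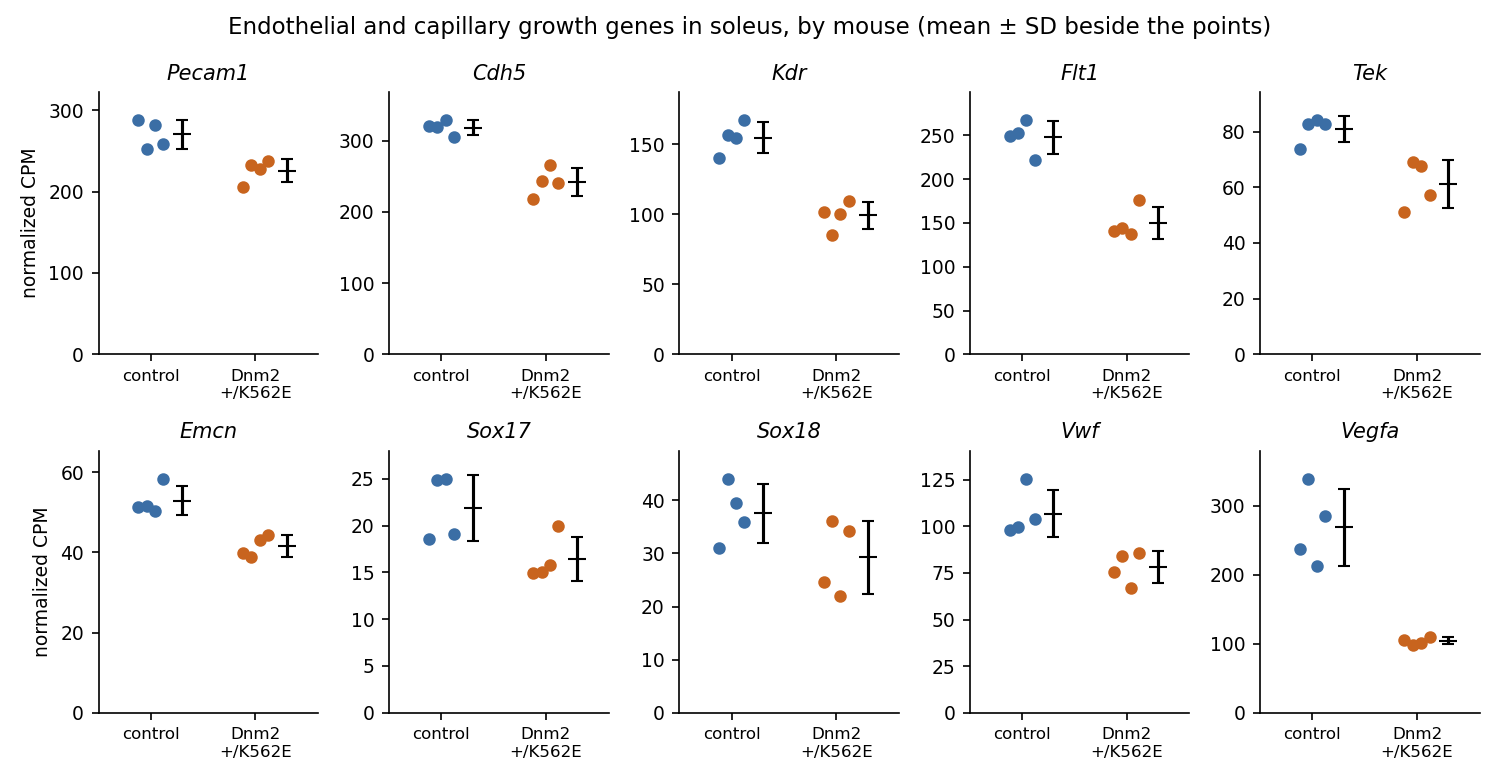
Normalized CPM (vertical axes, from 0) of the 10 genes in each control mouse (blue) and each Dnm2 +/K562E mouse (orange), with the mean and SD over 4 mice as black bars. The groups are separate in 8 panels and overlap for Sox17 and Sox18, and Vegfa shows the widest gap, with all mutants between 98.6 and 110.2 CPM.

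The ligand gene Vegfa (chromosome 17, 46016993 to 46032369) showed the largest change of the 10. Its level was 237, 339, 213 and 285 CPM in controls 1 to 4 and 106, 98.6, 101 and 110.2 CPM in mutants 1 to 4. The lowest control was therefore well above the highest mutant, and the controls were spread far more widely (269 ± 55.8) than the mutants (104 ± 5.08, SD, n = 4 each). Vegfa fell by 61.2%, a log2 fold change of -1.37 (standard error, SE, 0.13, adjusted p = 1.27e-05, edgeR quasi-likelihood F-test, Benjamini-Hochberg). Of all tested genes, 1.13% had a lower log2 fold change.

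The VEGF receptor genes came next. Flt1 (chromosome 5, 147561604 to 147726011), which encodes the tightly binding VEGFR1, was at 249.5, 253, 268 and 222 CPM in controls 1 to 4 and at 141, 144, 138 and 177 CPM in mutants 1 to 4. Mutant 4 stood above the other mutants but below every control. Flt1 fell by 39.6%, which is -0.73 on the log2 scale (SE 0.09, adjusted p = 9.01e-05, same test). Kdr (chromosome 5, 75932827 to 75978458), the gene of the main signalling receptor VEGFR2, was at 140.3, 156, 155 and 167 CPM in controls and at 102, 85.4, 100.2 and 109 CPM in mutants, again without overlap. Its log2 fold change was -0.64 (SE 0.08, adjusted p = 1.23e-04, same test). Without mutant 2, the lowest, it was -0.58 and just short of the fold threshold, so that 2 of the 10 genes passed both thresholds. The changes of the receptor genes could not be distinguished. Within a mouse, log2 Kdr minus log2 Flt1 was -0.68 ± 0.19 in controls and -0.60 ± 0.15 in mutants (SD, n = 4 each), a difference of 0.09 that was within the spread between mice (exact two-sided permutation test, p = 0.486).

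Tek (chromosome 4, 94739289 to 94874976), the angiopoietin receptor gene, was at 73.9, 82.8, 84.1 and 82.7 CPM in controls and at 51.0, 69.2, 67.6 and 57.2 CPM in mutants. Control 1 was apart from the other controls and was still above the highest mutant. The log2 fold change was -0.40 (SE 0.10, adjusted p = 0.00644, edgeR quasi-likelihood F-test, Benjamini-Hochberg).

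The genes of endothelial junctions, surface and storage granules all fell, with log2 fold changes between -0.45 and -0.26. Cdh5 (chromosome 8, 104101625 to 104144511), which encodes the adherens junction protein VE-cadherin, was at 321, 319, 329 and 305 CPM in controls and at 218, 243, 266 and 241 CPM in mutants. The controls lay close together and all mutants were below them, with a log2 fold change of -0.40 (SE 0.07, adjusted p = 7.68e-04, same test). Pecam1 (chromosome 11, 106654217 to 106750628), the gene of the adhesion molecule CD31 found on all endothelial cells, was at 288, 252, 282 and 259 CPM in controls and at 206, 233, 228 and 237 CPM in mutants. This was the smallest change of the 10 genes, at -0.26 (SE 0.07, adjusted p = 0.00994, same test), and the highest mutant was close below the lowest control. Emcn (chromosome 3, 137341067 to 137432185), the gene of a sialomucin of capillaries and veins, was at 51.4, 51.6, 50.2 and 58.4 CPM in controls and at 39.8, 38.9, 43.2 and 44.4 CPM in mutants. The groups were separate, with a log2 fold change of -0.35 (SE 0.07, adjusted p = 0.00258, same test). Vwf (chromosome 6, 125546774 to 125686679), which encodes the clotting glycoprotein stored in endothelial cells and platelets, was at 97.9, 99.8, 126 and 104 CPM in controls and at 75.7, 84.3, 67.1 and 85.5 CPM in mutants. Control 3 was the highest, and all mutants were below all controls (log2 fold change -0.45, SE 0.10, adjusted p = 0.00377, same test).

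The SoxF genes had the fewest reads and the least certain changes. Sox17 (chromosome 1, 4490931 to 4497354), a factor of arterial endothelium, was at 18.5, 24.9, 25.0 and 19.1 CPM in controls and at 14.9, 15.0, 15.8 and 19.9 CPM in mutants. Mutant 4 lay above controls 1 and 4, so the groups overlapped, and the log2 fold change was -0.42 (SE 0.13, adjusted p = 0.0239, edgeR quasi-likelihood F-test, Benjamini-Hochberg). This call was lost when any of controls 2 and 3 or mutants 1, 2 and 3 was left out, with adjusted p-values from 0.0588 to 0.0727 in the same test. In addition, 15.7% of the 31-base stretches of Sox17 transcripts also occur in the gene model Gm37587, so part of its reads may have been assigned differently, whereas no other gene of the 10 shared more than 2.5%. Sox18 (chromosome 2, 181669836 to 181671640), a factor of vessel and lymphatic formation, was at 30.98, 44.1, 39.4 and 35.8 CPM in controls and at 24.6, 36.1, 22.0 and 34.2 CPM in mutants. Mutants 2 and 4 lay within the range of the controls, and the log2 fold change of -0.36 (95% interval -0.72 to -0.01) did not pass the adjustment (adjusted p = 0.0902, same test). Without control 1, which had the lowest Sox18 level among the controls, all 10 genes passed. None of the exons of the 10 genes overlapped those of another counted gene.

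Scaling changed the calls of 5 of these genes. With library size alone, the 4 genes Vegfa (log2 fold change -1.16), Flt1 (-0.52), Kdr (-0.43) and Cdh5 (-0.19) still fell with an adjusted p under 0.05, and Vegfa alone also passed the fold threshold. Pecam1 was then at -0.05 (adjusted p = 0.538), Emcn at -0.14 (adjusted p = 0.135), Tek at -0.19 (adjusted p = 0.137), Sox17 at -0.21 (adjusted p = 0.173), Sox18 at -0.15 and Vwf at -0.24 (adjusted p = 0.0633, all edgeR quasi-likelihood F-test, Benjamini-Hochberg). None of the 10 changed sign. Under this scaling the median of the 10 genes was -0.20, against 0.22 for all tested genes. Past both thresholds, 2865 of all tested genes were then higher and 564 lower.

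**Figure D2:**
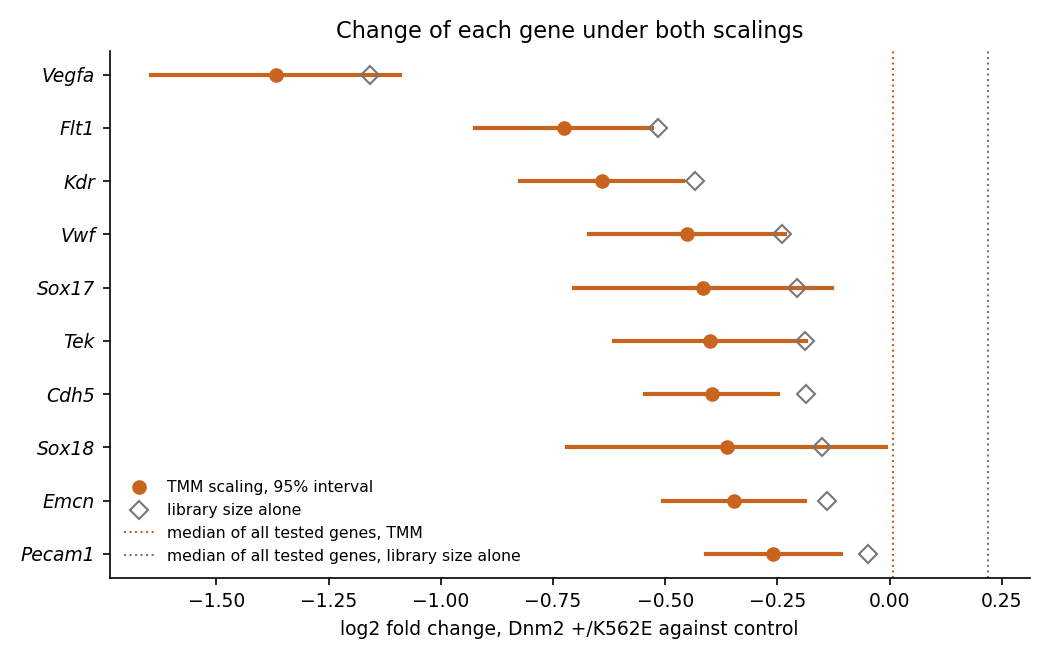
Log2 fold change (horizontal axis, Dnm2 +/K562E against control) of the 10 genes with TMM scaling (filled circles, with 95% intervals as lines) and with library size alone (open diamonds). Dotted lines mark the median of all tested genes under each scaling (0.01 and 0.22), and all 10 genes lie to the left of both lines under their own scaling.

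A comparison within each mouse does not depend on the scaling of libraries. Each gene was therefore set against Pecam1, as the difference of log2 CPM, and 9 such differences were compared between genotypes with exact two-sided permutation tests. With 4 against 4 mice the smallest p that these tests can give is 0.0286, and it was reached by 2 genes. Vegfa relative to Pecam1 was lower in mutants by 1.09 on the log2 scale and Flt1 by 0.47, both without overlap between the genotypes (exact permutation p = 0.0286 each, adjusted p = 0.129 over the 9 differences, which does not pass). With only 2 genes at the smallest p, none could pass an adjustment over 9 or 10 differences, so the adjusted values decide nothing here. Kdr relative to Pecam1 was lower by 0.39 with overlap (exact permutation p = 0.0571, adjusted p = 0.171). The other 6 genes differed from Pecam1 by between -0.19 (Vwf) and -0.09 (Emcn), which was not distinguishable from 0 (exact permutation p from 0.0857 to 0.6). Set against Cdh5 in place of Pecam1, Vegfa was lower by 0.95 without overlap and Flt1 by 0.33 with overlap (exact permutation p = 0.0286 and 0.0571). Set against the mean of 20 other endothelial genes, a reference added after the values were seen, Vegfa was lower by 0.97 and Flt1 by 0.35, both again without overlap (exact permutation p = 0.0286 each, adjusted p = 0.143 over 10 differences, which does not pass). Against this reference Kdr was lower by 0.27 and Pecam1 itself higher by 0.12, both with overlap (exact permutation p = 0.0571 each), whereas Tek, Emcn, Sox17, Sox18, Vwf and Cdh5 differed by 0.07 or less in either direction. In bulk RNA, Pecam1 from endothelium and from other cells cannot be told apart, and any part of other cells in these ratios was not tested.

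**Figure D3:**
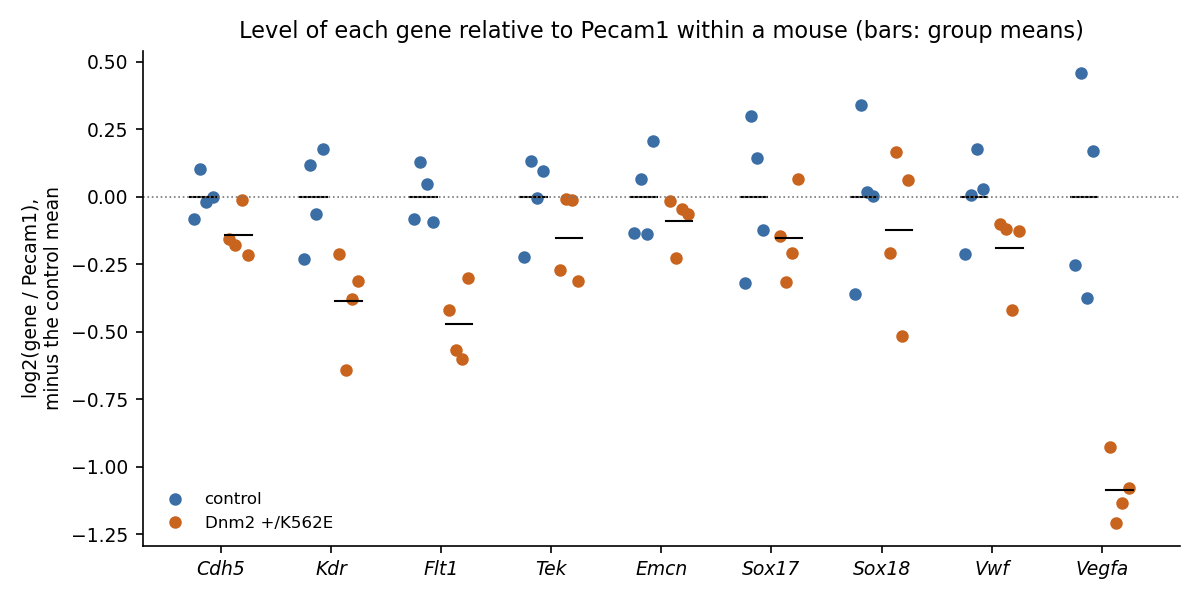
Log2 ratio of each gene to Pecam1 in the same mouse (vertical axis, minus the control mean) in 4 control mice (blue) and 4 Dnm2 +/K562E mice (orange), with group means as black bars. The groups are separate for Flt1 and Vegfa and overlap for the other 7 genes.

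Levels can be compared between genes only per length, here as FPKM (normalized CPM divided by the summed exon length in kilobases). In controls Cdh5 was highest, at 75.8 ± 2.41 FPKM (SD, n = 4), followed by Vegfa at 62.7 ± 13.0 and Pecam1 at 43.4 ± 2.81 (SD, n = 4 each). Cdh5 and Vegfa overlapped between control mice, and Vegfa and Pecam1 did not. Sox18 (23.2 ± 3.42), Flt1 (18.4 ± 1.40), Tek (17.2 ± 1.00) and Kdr (17.1 ± 1.22) formed a middle group in which neighbours were within each other's range (FPKM, SD, n = 4 each). Emcn (9.78 ± 0.683), Vwf (6.65 ± 0.795) and Sox17 (4.59 ± 0.747) were lowest, each apart from the next. In Dnm2 +/K562E mice Vegfa was at 24.3 ± 1.19 FPKM (SD, n = 4), so that it came after Pecam1 (36.3 ± 2.23), and Flt1 came after Tek, although the ranges of Flt1 and Tek overlapped in both genotypes. The other 6 genes kept their places.

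Differences between mice of the same genotype were not shared closely by the 9 genes other than Vegfa. Taking each mouse's deviation of log2 CPM from its genotype mean, the correlation over 8 mice had a median of 0.12 over the 36 pairs of these genes and ran from -0.36 to 0.80. Vegfa correlated with them between -0.66 and 0.41. The 5 of 12587 genes whose deviations were most like the mean of the 9 genes were Jsrp1, Zfp366, the Notch target Hey1, Rabac1 and Plpp6 (r from 0.97 to 0.98), and the 5 most like Vegfa were the growth factor gene Gdf5, Sumf2, the connexin gene Gjc3, Limk2 and Ak5 (r from 0.96 to 0.97). These correlations rest on 8 mice that share the scaling of their libraries, and the highest of so many are high by selection.

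Further vascular genes were grouped in lists, some of which share genes. For the list counts with TMM, the shares over all 14001 tested genes were 21.7% that fell and 22.2% that rose. A count of 1 gene in a list is near or below these shares. In lists of 6 genes, a count of 2 lies above them but rests on few genes. These shares do not hold for library size alone, and those of that scaling at the same adjusted p are not given here. Past both thresholds, library size alone gave 2865 of all tested genes higher and 564 lower, against 1806 and 1099 with TMM. Of 20 other endothelial identity genes, 11 fell, 1 rose and 8 did not pass. Their median was -0.44 on the log2 scale, and with library size alone the counts were the same and the median was -0.23. Robo4, a guidance receptor of endothelial cells, fell from 57.9 ± 3.95 to 34.8 ± 3.59 CPM (SD, n = 4 each). The endothelial phosphatase gene Ptprb, whose product acts on Tie2, had a log2 fold change of -0.75, and Nos3, the endothelial nitric oxide synthase gene, one of -0.86, with 7.12% of its exon bases shared with Atg9b on the other strand. The gene that rose was Cd34, which endothelial cells share with connective tissue progenitors, from 161 ± 13.3 to 243 ± 23.0 CPM (SD, n = 4 each, log2 fold change 0.60). Plvap, Fli1 and Cldn5 were among those that did not pass, at -0.04, -0.06 and -0.15.

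Of 10 genes of muscle capillaries, 5 fell and 2 rose, against 21.7% and 22.2% of all tested genes. Gpihbp1, which holds lipoprotein lipase on the capillary wall, was at 84.6 to 109 CPM in controls and 52.0 to 62.2 CPM in mutants (log2 fold change -0.74, adjusted p = 7.46e-05, edgeR quasi-likelihood F-test, Benjamini-Hochberg). The water channel gene Aqp1 was at -0.60, whereas Rgcc rose by 1.28 on the log2 scale and the transcription factor gene Meox2 by 0.78. Of 9 genes of arteries, 6 fell and none rose, among them Gja5, which encodes connexin 40 (-1.09), and the Notch ligand gene Jag1 (-0.59). With library size alone 3 of these 9 genes fell and the co-receptor gene Nrp1 changed sign (-0.16 to 0.05). Of 7 genes of veins, 3 fell, among them Lrg1 (-0.86), and Selp, which endothelium and platelets use to bind leukocytes, rose by 1.46.

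Of the other ligands of the VEGF family none rose past the test. Vegfb, which binds VEGFR1 and is abundant in oxidative muscle, was at 123, 143, 127 and 129 CPM in controls 1 to 4 and at 59.7, 73.7, 72.0 and 65.3 CPM in mutants 1 to 4. The groups were far apart, with a log2 fold change of -0.95 (SE 0.08, adjusted p = 6.48e-06, edgeR quasi-likelihood F-test, Benjamini-Hochberg), and with library size alone it was -0.74. Vegfc, Vegfd and Pgf, all under 6 CPM on average, did not pass (-0.15, -0.39 and -0.48). In the 7-gene list of VEGF ligands and co-receptors, 3 fell and none rose, and with library size alone 1 fell.

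In the angiopoietin and Tie list, 2 of 6 genes fell and 1 rose. The angiopoietin genes Angpt1 and Angpt2 were at 0.03 and -0.36 on the log2 scale and did not pass, whereas Svep1, a large matrix protein gene of this list, rose from 27.3 ± 4.25 to 80.5 ± 14.6 CPM (SD, n = 4 each, log2 fold change 1.56). Among 11 genes of sprouting tip cells, 1 fell, 1 rose and 9 did not pass. The one that fell was Apln, a peptide ligand gene of sprouting vessels, at 7.67 ± 2.37 against 3.76 ± 1.90 CPM (SD, n = 4 each), with overlap between the genotypes and no call with library size alone (adjusted p = 0.0327 and 0.0650, same test). The median of this list was -0.14 and turned to 0.07 with library size alone, where 5 of its genes were higher and none lower. That scaling moved the median of all tested genes from 0.01 to 0.22, and past both thresholds it gave 2865 of them higher and 564 lower.

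Among 6 genes whose products restrain vessel growth, 3 rose past both thresholds. These were Thbs1 (log2 fold change 1.54) and Thbs2 (1.22), the genes of thrombospondins, and Col18a1 (0.89), whose protein is the source of endostatin. Thbs1 rose from 57.6 ± 15.6 to 167 ± 35.7 CPM (SD, n = 4 each, adjusted p = 1.27e-04, edgeR quasi-likelihood F-test, Benjamini-Hochberg). Vash1 and Adamts1 fell (-0.49 each), and with library size alone neither passed. Thrombospondins and collagen XVIII are also made by cells of connective tissue, and all 6 fibroblast genes rose in the same libraries (median 1.06), with a summed level of 1880 to 2832 CPM in controls and 4013 to 5178 CPM in mutants. The part of connective tissue in these changes was not tested.

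Of 10 regulators of Vegfa, 6 fell and 1 rose, and with library size alone 3 were lower and 3 higher. Ppargc1a, the gene of the coactivator that drives Vegfa in exercised muscle, was at 53.2, 117, 102 and 86.0 CPM in controls and at 32.8, 25.2, 24.5 and 33.4 CPM in mutants (log2 fold change -1.63). Every mutant was below every control. Its nuclear receptor partner Esrra was at -0.70 and the oxygen sensor gene Egln1 at -0.61. The calls of the hypoxia factor genes Hif1a, Epas1 and Arnt depended on the scaling, whereas their directions did not. Hif1a did not pass (0.02, adjusted p = 0.860) and was higher with library size alone (0.23, adjusted p = 0.0393, edgeR quasi-likelihood F-test). Epas1 fell (-0.28, adjusted p = 0.0143) and lost the call with library size alone (adjusted p = 0.421), as did Arnt and Egln2 (same test). Egln2 also changed sign, from -0.19 to 0.02. Among 9 tested hypoxia target genes, 3 fell, led by Bnip3 (-0.52), and none rose. With library size alone, 1 of them fell and 3 were higher, and the list median turned from -0.20 to 0.01. Under each scaling it lay below the median of all tested genes, which was 0.01 with TMM and 0.22 with library size alone.

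**Figure D4:**
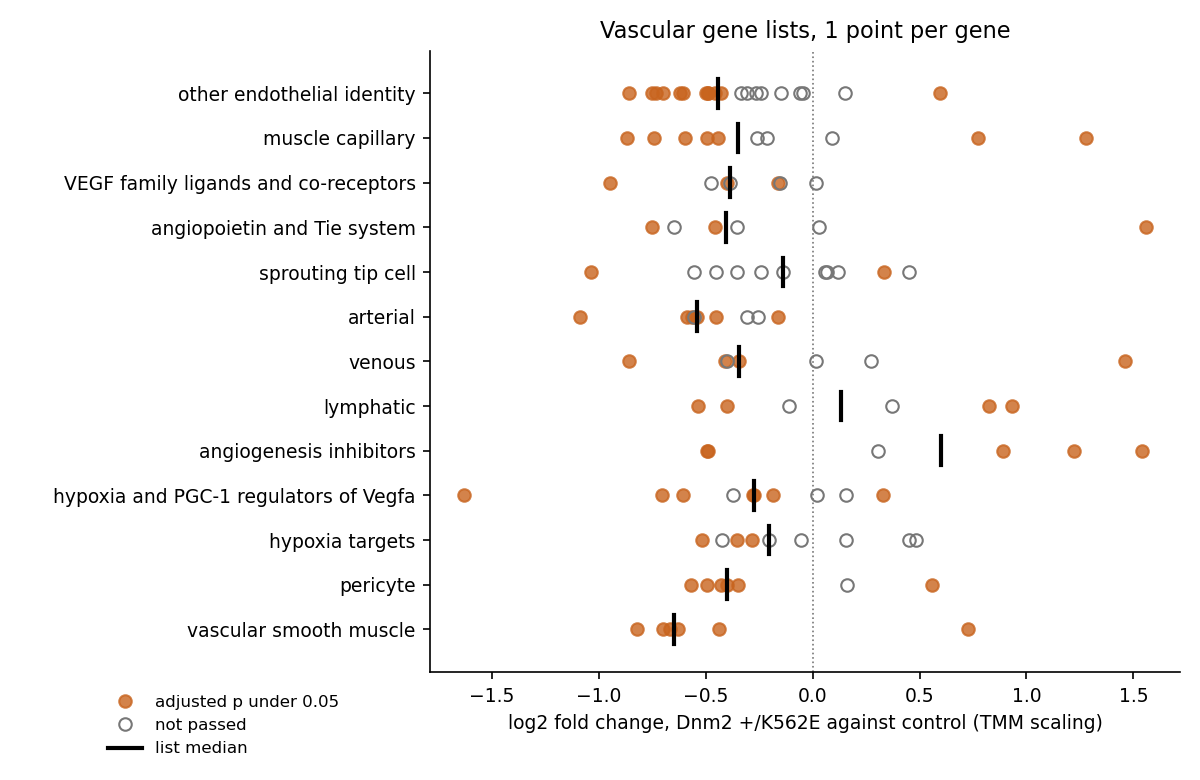
Log2 fold change with TMM scaling (horizontal axis, Dnm2 +/K562E against control) of the genes in 13 vascular lists, with 1 point per gene, filled where the adjusted p was under 0.05, and the list median as a black bar. The medians lie between -0.65 (vascular smooth muscle) and -0.14 (sprouting tip cell) except for the lymphatic (0.13) and angiogenesis inhibitor lists (0.60). With library size alone, the sprouting tip cell and hypoxia target medians turn positive. Both stay below the median of all tested genes under that scaling (0.22).

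Cells of the vessel wall moved in part with the endothelial genes. Of 7 pericyte genes, 5 fell and 1 rose, with Abcc9 at -0.57 and Rgs5 at -0.35. The pericyte gene that rose was Cspg4 (0.56), and Pdgfrb did not pass (0.16). Of 6 smooth muscle genes, 5 fell and 1 rose. Scaled by library size alone, 2 pericyte genes were lower, Abcc9 and Notch3, and 2 were higher, Cspg4 and Pdgfrb (0.37), while the call of Rgs5 was lost (adjusted p = 0.0984, edgeR quasi-likelihood F-test), and 3 smooth muscle genes were lower and 1 higher. Acta2 fell from 186 ± 35.3 to 106 ± 3.86 CPM (SD, n = 4 each), Tagln was at -0.67 and Myh11 at -0.63. The smooth muscle gene that rose, Des, is also a major gene of muscle fibres. Lymphatic genes were divided, with Prox1 and Flt4 falling (-0.54 and -0.40) and Pdpn (0.82) and Lyve1 (0.93) rising, the last of which macrophages also express. Whether any of these changes took place in lymphatic vessels or in other cells was not tested. The lymphatic median of 0.13 ran from 0.03 to 0.27 when single mice were left out and was 0.34 with library size alone, where Flt4 lost its call.

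Genes of blood cells and other tissues in the same libraries also changed. All 5 tested erythrocyte genes fell (median -0.95), with a summed level of 525 to 895 CPM in controls and 248 to 517 CPM in mutants, and all 5 also fell with library size alone. Of 4 tested platelet genes, 3 rose, at a summed level of 7.27 to 13.6 CPM in controls and 14.1 to 23.2 CPM in mutants, while Vwf fell. One of the 3, Gp1bb, shares 91.1% of its exon bases with Sept5, so their reads cannot be told apart. Another, Itga2b, averaged only 1.22 CPM in controls and 2.33 CPM in mutants. The remaining gene, Pf4, was at 4.71 to 9.69 CPM in controls and 7.70 to 16.1 CPM in mutants, with overlap. Control 4 was its highest control, as it was for the macrophage genes Mrc1 and Csf1r. The part of other cells in the rise of Pf4 was not tested. The platelet gene Ppbp, at 0.517 CPM in controls, did not pass (-0.28). Whether platelet number differed was not tested. All 7 macrophage genes rose (median 1.20, summed level 72.8 to 135 CPM in controls and 179 to 296 CPM in mutants). In the slow fibre list 6 of 7 genes fell (median -0.52), among them the light chain gene Myl3 at -2.12. That list also holds Ckm (-1.02) and Actn2 (-0.50), which are not restricted to slow fibres, and Tnni1 did not pass (-0.15). No marker in these lists was at 0 in every library. The part that macrophages, connective tissue and fibre RNA had in the share left to endothelial genes was not tested.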

How the data were processed

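Soleus RNA of 4 control and 4 Dnm2 +/K562E mice was analysed. The authors deposited raw counts per gene for each mouse, made, per the labels and the methods, with Trimmomatic 0.33, STAR 2.5.1b and featureCounts on GRCm38.p5 with Ensembl genes; reads over several genes counted for each, and the strand setting is not given in the sources used here. The methods describe poly A-enriched RNA and the labels a total RNA kit.

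Symbols, positions and exon lengths came from GENCODE M21 (22647 of 22880 identifiers matched; 14001 genes were tested). filterByExpr (minimum count 10, minimum total 15), TMM factors and the quasi-likelihood F-test were run across all genes with edgeR 4.0.16 in R 4.3.3, with Benjamini-Hochberg adjustment. A gene fell or rose at an adjusted p under 0.05, and the fold threshold was a log2 fold change of 0.58, as in the methods. Standard errors and 95% intervals follow from the F statistic. Log2 CPM for correlations used a prior count of 2. Single values were compared by exact permutation tests (scipy 1.17.1). Replicate libraries of a genotype differed by more than sampling noise (chi-square per degree of freedom at least 12.6). The fit was tested on simulated data.

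Named genes are the 10, Dnm2, up to 4 genes of smallest p past both thresholds in each list (or the gene of smallest p), and the 5 most correlated. Others named (Plvap, Fli1, Cldn5, Nrp1, Vegfc, Vegfd, Pgf, Angpt1, Angpt2, Vash1, Adamts1, Hif1a, Epas1, Arnt, Egln2, Rgs5, Notch3, Cspg4, Pdgfrb, Prox1, Flt4) were chosen after their values were seen. Ppbp, Actn2 and Tnni1 were also named after their values were seen. The 10 genes and the lists were chosen with earlier results of these data known. Other settings tried were DESeq2 1.42.0 and the edgeR exact test, scaling by library size alone or by median ratios, removal of mitochondrial genes, other filters on low counts, the replicate number as a block, and each mouse left out in turn.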

Additional observations from a re-analysis of the deposited data

Results flagged for a closer look

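In groups of 4 mice, 1 mouse lay apart from the other 3 in 11 of 116 groups checked, where chance alone flags about 1 in 20. Among the 10 genes this was Flt1 in mutant 4 (177 CPM) and Tek in control 1 (73.9 CPM). Total Dnm2 was set apart in control 3 (59.2 CPM). Control 4 was set apart as the highest control for Lyve1 (28.6 CPM), Col18a1 (48.3 CPM), Pf4 (9.69 CPM), Mrc1 (36.1 CPM) and Csf1r (49.6 CPM). Among mutants, mouse 1 was highest for Svep1 (102 CPM), and mouse 4 was highest for Des (6034 CPM) and lowest for Itga2b (1.59 CPM).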

How the results depend on the processing

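For the 10 genes, the direction held in all alternatives. With the exact test of edgeR, DESeq2, median-ratio factors, no mitochondrial genes and other filters, 9 fell and 3 passed both thresholds. Library size alone gave 1 of the 10 past both thresholds (all genes: 2865 higher, 564 lower) and 4 with an adjusted p under 0.05. With TMM and no fold threshold, 9 of the 10 fell, and 3103 of all genes were higher and 3036 lower. Leaving out each mouse gave 2 to 3 past both thresholds and 8 to 10 with an adjusted p under 0.05 (all genes: 1588 to 1970 higher, 1026 to 1208 lower). With library size alone the list medians were -0.23 (other endothelial), -0.14 (capillary), -0.18 (VEGF family), -0.20 (angiopoietin and Tie), 0.0717 (tip cell), -0.33 (arterial), -0.13 (venous), 0.34 (lymphatic), 0.81 (inhibitors), -0.0639 (regulators of Vegfa), 0.00739 (hypoxia targets), -0.19 (pericyte), -0.44 (smooth muscle) and -0.31 (slow fibre). The median of all tested genes was 0.22 under that scaling. Without single mice the medians ran from -0.44 to -0.22 (VEGF family), from -0.44 to -0.23 (capillary), from -0.23 to -0.00033 (tip cell) and from -0.22 to -0.0930 (hypoxia targets). With Cdh5 as the reference 1 difference reached the smallest p, and Flt1 was at -0.33. Against the other endothelial genes Cdh5 was at -0.0235. Beyond the shift by scaling, the cause was not tested.

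Same-numbered mice are different animals. Their deviations had a mean correlation of -0.11 by the title numbers and -0.03 by the description numbers. A replicate block by title number gave 1637 higher and 1036 lower genes, Sox17 lost its call (adjusted p = 0.0525) and Sox18 gained one (adjusted p = 0.0467, edgeR quasi-likelihood test). By the description numbers the block gave 1739 and 1083.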
